A study of Sus scrofa with 12 samples.

Results

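Hepatic expression of the genes that take up long-chain fatty acids and activate them to acyl-CoA was compared between Jinhua (JH) and Landrace (LD) pigs. The genes were chosen by name and were the fatty acid transport proteins SLC27A2, SLC27A4 and SLC27A5, the scavenger receptor CD36, the carrier FABP1 and the long-chain acyl-CoA synthetases ACSL1, ACSL3, ACSL4 and ACSL5. Of these 9 genes, 8 were found by symbol among the 31694 genes of the mRNA tables, and all 8 passed the filter on low values. JH is a slow growing, fat Chinese breed and LD is a fast growing, lean breed. Liver tissue came from 3 JH and 3 LD pigs, all uncastrated males of 70 days of age with no stated treatment, and each pig gave 1 mRNA library. The public labels call JH the experiment group and LD the control group.

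Fatty acids reach hepatocytes from the circulation and cross the plasma membrane with the help of CD36 and of the SLC27A proteins, several of which are themselves acyl-CoA synthetases. In the cytosol they are bound by FABP1, one of the most abundant soluble proteins of the hepatocyte. The ACSL enzymes, which differ in their place in the cell, join the fatty acid to coenzyme A, and only this activated form can be oxidized, elongated, or built into triglyceride and phospholipid. FABP1, ACSL1 and several SLC27A genes are textbook targets of the nuclear receptor PPARA in liver.

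Expression was deposited as RPKM, read counts scaled by gene length and by library size, which is meant to allow comparison between genes and between pigs. The RPKM had been divided by totals of 5744909 to 7914515 reads per library, which were recovered from the steps between the values of low genes. The breeds were compared with limma on log2(RPKM + 0.1) for the 12993 genes that reached 0.5 RPKM in 3 or more libraries. Fold changes are JH over LD on this scale and so are too small for genes of low level. A gene was called where its adjusted p (Benjamini-Hochberg) was under 0.05 and its log2 fold change was over 1 in size. By this rule 2.39% of all tested genes were called, 1.02% higher in JH and 1.36% lower in JH, and the median log2 fold change over all tested genes was 0.04. The values of the breeds did not overlap in 23.4% of the tested genes. The ribosomal RNA gene RN18S, from which little should be left after mRNA selection, ranged from 1570 RPKM in JH2 to 62257 RPKM in JH3. The medians of log2 expression were lowest in JH3 and LD3, at 2.10 in both, against 2.35 to 2.42 in the other libraries. The scaling thus left differences in level between libraries, and the RPKM of single pigs given below carry them.

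Of the 8 genes 2 were called, SLC27A4 higher in JH and FABP1 lower in JH, against 2.39% of all tested genes. The values of the breeds did not overlap in 4 of the 8 genes, against 23.4% of all tested genes. SLC27A2 and SLC27A4 had all JH values above all LD values, and FABP1 and ACSL3 had all JH values below. The remaining CD36, ACSL1, ACSL4 and ACSL5 overlapped between the breeds and were not called. The median log2 fold change of the 8 genes was 0.19, with 4 genes above 0 and 4 below, so the group did not move in one direction.

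**Figure D1:**
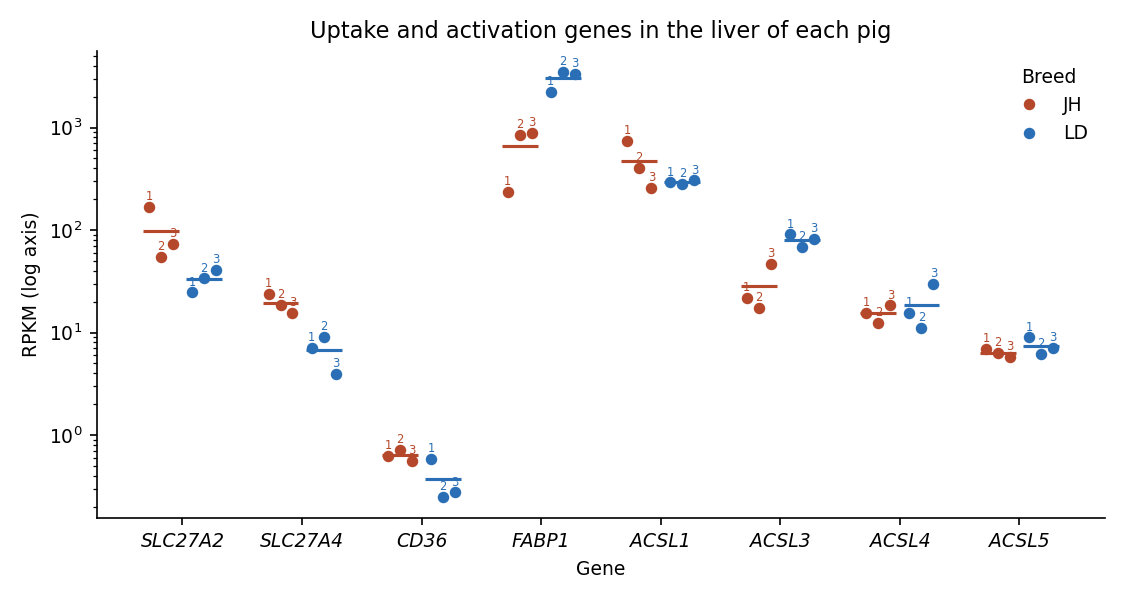
RPKM of 8 fatty acid uptake and activation genes in the liver of each pig, on a log axis. Each point is 1 pig, numbered by its label, and bars are breed means (n = 3). SLC27A2 and SLC27A4 lay higher in every JH pig, FABP1 and ACSL3 lay lower in every JH pig, and the other genes overlapped. Of all tested genes 23.4% did not overlap between the breeds.

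SLC27A4, a fatty acid transport protein with acyl-CoA synthetase activity, was the transporter called between the breeds. It was at 23.8 RPKM in JH1, 18.8 in JH2 and 15.4 in JH3, against 7.04 in LD1, 9.14 in LD2 and 3.94 in LD3. The lowest JH pig lay above the highest LD pig. The means were 19.3 ± 4.19 RPKM (SD, n = 3) in the JH pigs and 6.71 ± 2.61 RPKM (SD, n = 3) in the LD pigs, and the level was 2.97-fold higher in JH (log2 fold change 1.57, 95% interval 0.81 to 2.33, limma adjusted p = 0.0480). Each JH value stands for 356 to 434 recovered reads, and each LD value for 93 to 215. The call held without JH3. It was lost without JH1 (adjusted p = 0.132 from limma), JH2 (0.117), LD1 (0.139), LD2 (0.0652) or LD3 (0.115). With any 1 library left out the log2 fold change stayed between 1.24 and 1.83. Where the call was lost, calls over all tested genes also fell, from 310 to between 79 (without LD1) and 164 (without JH1). The SLC27A4 call was also lost with a pseudocount of 0.01 (adjusted p = 0.0602 from limma), with no filter (0.0732) and without the variance trend (0.0792).

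SLC27A2, a very long-chain acyl-CoA synthetase that also carries fatty acids into the hepatocyte, was the more abundant of both transporters. It was at 169 RPKM in JH1, 54.96 in JH2 and 72.9 in JH3, against 24.6 in LD1, 33.7 in LD2 and 41.0 in LD3. All JH pigs lay above all LD pigs, and JH1 stood far above the other JH pigs. The means were 98.8 ± 61.1 RPKM (SD, n = 3) in the JH pigs and 33.1 ± 8.19 RPKM (SD, n = 3) in the LD pigs. The log2 fold change of 1.43 (95% interval 0.52 to 2.35) did not pass the adjusted threshold (adjusted p = 0.114 from limma). Without JH1 it was 0.96. SLC27A2 was called in none of the 14 alternative fits.

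SLC27A5, the bile acyl-CoA synthetase of the liver, was not listed under its symbol. The entry LOC102158419, which carries the RefSeq gene number of SLC27A5, was listed at 0 in all 6 libraries. APOB, a defining gene of the hepatocyte, was also listed at 0 in all 6 libraries, and SLC27A5 was not analysed further.

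CD36, a scavenger receptor that takes up long-chain fatty acids and is known to be low in healthy hepatocytes, was the lowest of the 8 genes in both breeds. It was at 0.621 RPKM in JH1, 0.715 in JH2 and 0.564 in JH3, against 0.586 in LD1, 0.251 in LD2 and 0.275 in LD3. LD1 fell among the JH pigs, while LD2 and LD3 lay below them. Each JH value stands for 18 to 28 reads, and each LD value for 10 to 21. For LD2 the 95% Poisson interval, which covers counting error only, ran from 0.120 to 0.462 RPKM, and for JH2 from 0.475 to 1.03 RPKM. The log2 fold change of 0.70 (95% interval -0.44 to 1.84, adjusted p = 0.508 from limma) left a difference in either direction possible. CD36 passed the filter with values of at least 0.5 RPKM in all JH libraries and in LD1.

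FABP1, the liver fatty acid binding protein, fell the furthest. It was at 237 RPKM in JH1, 847 in JH2 and 889 in JH3, against 2224 in LD1, 3482 in LD2 and 3364 in LD3. The lowest LD pig was far above the highest JH pig, and JH1 was the lowest of all pigs. The means were 658 ± 365 RPKM (SD, n = 3) in the JH pigs and 3023 ± 695 RPKM (SD, n = 3) in the LD pigs, and the level was 5.26-fold higher in LD (log2 fold change -2.40, 95% interval -3.49 to -1.30, limma adjusted p = 0.0416). By mean level FABP1 ranked 23rd of the tested genes in LD and 125th in JH. The recovered reads ranged from 572 in JH1 to 11546 in LD2, so counting error is small beside the difference.

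The direction of FABP1 was the same in all 14 alternative fits, with log2 fold changes between -2.73 and -1.77, the smallest change being that without JH1. It was still called without JH1 or JH3, and the call was lost without JH2 (adjusted p = 0.0577 from limma), LD1 (0.110), LD2 (0.141) or LD3 (0.118). It was also lost with a pseudocount of 0.01 (adjusted p = 0.0530 from limma), no filter (0.0903), median scaling (0.0527) and without the variance trend (0.0716). In bulk tissue, fewer hepatocytes and less FABP1 mRNA per hepatocyte cannot be told apart. The summed level of the 9 listed hepatocyte markers was 59689 to 65969 RPKM in JH and 75575 to 92465 RPKM in LD. The sum was lower in every JH pig, and ALB was a large part of it (27533 to 33599 RPKM in JH, 37742 to 53893 in LD). Singly, ALB, SERPINA1, TF and CPS1 were lower in every JH pig, while TTR, APOH, FGB and HP overlapped. For comparison, 23.4% of all tested genes did not overlap in either direction. Of the 8 tested hepatocyte markers none was called, and their median log2 fold change was -0.30.

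ACSL3, an acyl-CoA synthetase of the endoplasmic reticulum and of growing lipid droplets, lay lower in every JH pig. It was at 21.8 RPKM in JH1, 17.4 in JH2 and 46.9 in JH3, against 90.7 in LD1, 68.7 in LD2 and 82.4 in LD3. JH3 lay between the other JH pigs and the LD pigs. The means were 28.7 ± 15.9 RPKM (SD, n = 3) in the JH pigs and 80.6 ± 11.1 RPKM (SD, n = 3) in the LD pigs. The log2 fold change of -1.61 (95% interval -2.43 to -0.80) missed the adjusted threshold narrowly (adjusted p = 0.0560 from limma). It passed without JH3 (log2 fold change -2.04, adjusted p = 0.0083 from limma), with a pseudocount of 1 (0.0446) and with voom on recovered reads (0.0258).

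ACSL1, the main long-chain acyl-CoA synthetase of the hepatocyte, was the most abundant ACSL gene in every pig. It was at 740 RPKM in JH1, 407 in JH2 and 260 in JH3, whereas the LD pigs held together at 291, 282 and 305. The JH pigs spread on both sides of the LD pigs, with a ratio of highest to lowest of 2.85 in JH and 1.08 in LD. The log2 fold change was 0.55 (95% interval -0.26 to 1.36, adjusted p = 0.468 from limma), and 0.15 without JH1.

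ACSL4, which prefers arachidonic acid, and ACSL5, an enzyme of mitochondria and the endoplasmic reticulum, differed little in mean. ACSL4 was at 15.6, 12.3 and 18.4 RPKM in JH1 to JH3 and at 15.5, 11.1 and 29.6 RPKM in LD1 to LD3, with LD3 apart from the rest. Its log2 fold change was -0.17 (95% interval -0.99 to 0.65, adjusted p = 0.840 from limma), and without LD3 it turned to 0.22. ACSL5 was at 6.89, 6.34 and 5.83 RPKM in JH1 to JH3 and at 8.97, 6.15 and 7.04 RPKM in LD1 to LD3. Its log2 fold change was -0.20 (95% interval -0.75 to 0.35, adjusted p = 0.718 from limma). In the reported fit the 95% interval of both genes lay within 1 on the log2 scale, for ACSL4 only narrowly. Over the 14 alternative fits the ACSL4 estimate ranged from -0.49 to 0.22. The intervals of those fits are not given here, so they are not said to exclude a 2-fold difference in ACSL4.

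**Figure D2:**
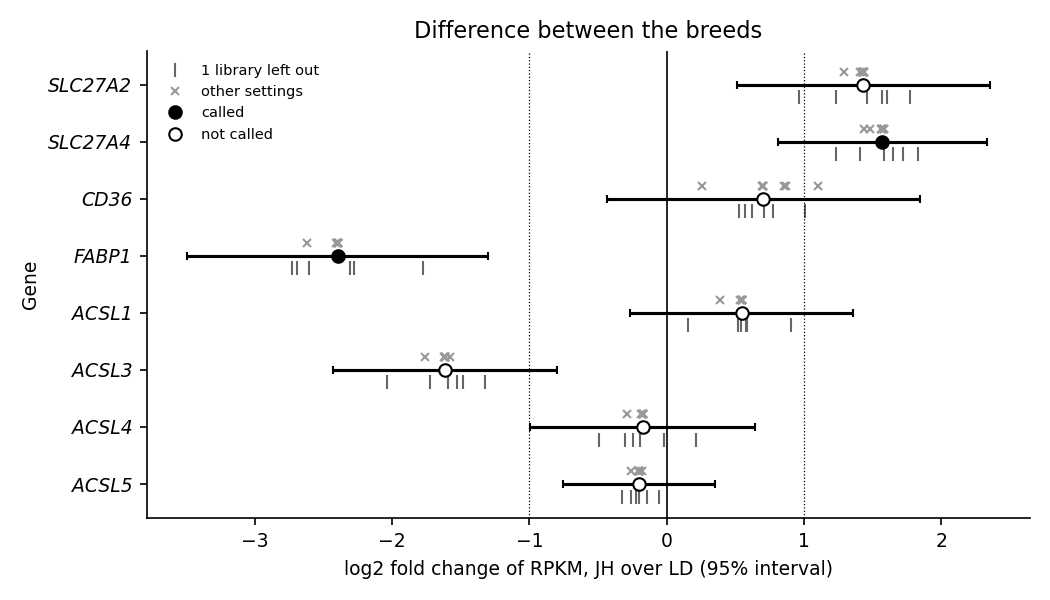
Log2 fold change of JH over LD for the 8 genes with its 95% interval from limma (n = 3 pigs per breed), filled where called. Ticks below each gene are fits without 1 library and crosses above are other settings; dotted lines mark a 2-fold difference. The FABP1 estimates lay between -2.73 and -1.77, and the ACSL4 estimates fell on both sides of 0.

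The order of the genes by mean RPKM differed between the breeds. In LD it ran FABP1, ACSL1, ACSL3, SLC27A2, ACSL4, ACSL5, SLC27A4 and CD36. In JH it ran FABP1, ACSL1, SLC27A2, ACSL3, SLC27A4, ACSL4, ACSL5 and CD36. Neighbours whose values overlapped were SLC27A2 with ACSL4 and ACSL5 with SLC27A4 in LD, and FABP1 with ACSL1, ACSL3 with SLC27A4 and SLC27A4 with ACSL4 in JH. In JH1 the RPKM of ACSL1 was above that of FABP1, and in the other 5 pigs it was below.

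The JH pigs differed among themselves more than the LD pigs in FABP1, ACSL1, ACSL3 and SLC27A2. The ratio of the highest to the lowest JH pig was 3.75 for FABP1, 3.07 for SLC27A2 and 2.70 for ACSL3, against 1.57, 1.66 and 1.32 among the LD pigs. JH1 was the highest JH pig for SLC27A2, SLC27A4, ACSL1 and ACSL5 and the lowest for FABP1. In SLC27A4, CD36, ACSL4 and ACSL5 the ratio was larger among the LD pigs. The difference in spread between the breeds was not tested.

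A share within 1 pig does not depend on how its library was scaled. Of the summed RPKM of the 4 ACSL genes, ACSL1 made up 94.3% in JH1, 91.9% in JH2 and 78.5% in JH3, against 71.7% in LD1, 76.6% in LD2 and 71.9% in LD3. Every JH pig lay above every LD pig, with means of 88.2% ± 8.51 (SD, n = 3) and 73.4% ± 2.80 (SD, n = 3). The share of ACSL3 was lower in every JH pig, with 6.96% ± 6.27 (SD, n = 3) for JH and 20.15% ± 1.91 (SD, n = 3) for LD. Both differences gave p = 0.1 in a two-sided exact permutation test, the smallest p that 3 pigs against 3 allow, and 0.267 after Benjamini-Hochberg adjustment over the 6 shares and 2 sums compared. The summed ACSL level itself was 519 ± 236 RPKM (SD, n = 3) in the JH pigs and 399 ± 28.6 RPKM (SD, n = 3) in the LD pigs (exact permutation p = 0.7).

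The proportion of the transporters to each other was alike in mean. SLC27A2 made up 81.6% ± 6.60 (SD, n = 3) of the summed RPKM of SLC27A2 and SLC27A4 in JH, against 82.6% ± 7.52 (SD, n = 3) for LD, a difference of less than the spread between pigs (exact permutation p = 1). Their summed level was 192, 73.7 and 88.3 RPKM in JH1 to JH3 and 31.7, 42.9 and 44.9 RPKM in LD1 to LD3, higher in every JH pig (exact permutation p = 0.1).

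**Figure D3:**
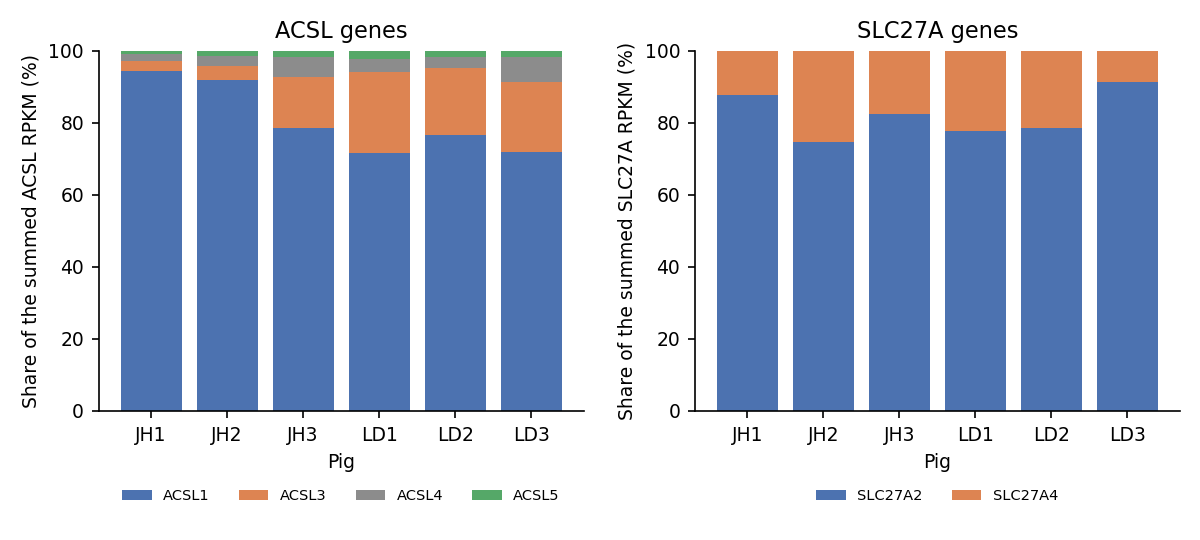
Share of each gene in the summed RPKM of the ACSL genes (left) and of SLC27A2 and SLC27A4 (right), as stacked bars, 1 bar per pig. ACSL1 held 78.5% to 94.3% of the ACSL sum in JH and 71.7% to 76.6% in LD, while the SLC27A shares of the breeds overlapped.

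Other genes of the pathway were compared by lists, of which 66 of 77 genes were listed and 49 were tested. Of these 49 genes 4 were called, 2 in each direction, and the median log2 fold change was 0.06. Over all tested genes 2.39% were called. With 3 to 10 tested genes in each list, a count of 0 or 1 says little about a list. Of the other fatty acid transport proteins, SLC27A1, SLC27A3 and SLC27A6, none was called. SLC27A6 was at most 1.05 RPKM in every pig and had -1.18 on the log2 scale (limma adjusted p = 0.259), and SLC27A3 had 0.37 (0.670).

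Among the other acyl-CoA synthetases 2 of 10 tested genes were called, both lower in JH, and the median log2 fold change was -0.21. ACSS2, which makes acetyl-CoA from acetate in the cytosol, was at 28.8 ± 11.9 RPKM (SD, n = 3) in the JH pigs and 98.5 ± 30.8 RPKM (SD, n = 3) in the LD pigs (log2 fold change -1.81, limma adjusted p = 0.0345). AACS, which activates acetoacetate, was at 13.8 ± 4.31 RPKM (SD, n = 3) in the JH pigs and 37.1 ± 7.92 RPKM (SD, n = 3) in the LD pigs (log2 fold change -1.44, limma adjusted p = 0.0420). Neither substrate is a long-chain fatty acid. With 1 library left out, both calls held only without JH3, and the adjusted p from limma otherwise reached up to 0.118 for ACSS2 and 0.151 for AACS.

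In the carnitine shuttle, which carries activated fatty acids into mitochondria, 1 of 7 tested genes was called. The log2 fold change was above 0 in 6 of the 7, with a median of 0.93, and in 6878 of all 12993 tested genes. The called gene was CPT1A, the rate-limiting enzyme of the shuttle, at 165, 72.7 and 51.0 RPKM in JH1 to JH3 and at 15.8, 18.2 and 25.3 RPKM in LD1 to LD3 (log2 fold change 2.13, limma adjusted p = 0.0370). As with SLC27A2 and ACSL1, JH1 was the highest pig. Without JH1 the log2 fold change was 1.65 (adjusted p = 0.0506 from limma), and the call held only without JH3 among the fits with 1 library left out. CRAT, which makes acetylcarnitine, had 1.39 on the log2 scale (limma adjusted p = 0.108), and without JH3 it was called with 1.74 (0.0417).

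Among membrane partners of uptake 1 of 9 tested genes was called. This was MFSD2A, a carrier of lysophosphatidylcholine with bound fatty acid, at 87.5, 42.3 and 42.0 RPKM in JH1 to JH3 and at 0.0648, 0.0583 and 6.28 RPKM in LD1 to LD3, where LD1 and LD2 had 1 read each and LD3 had 108 (log2 fold change 6.62, limma adjusted p = 0.0310). Its call held without JH3 or LD3 and was lost without any other library, with adjusted p from limma of 0.0675 to 0.115. The size of its difference rested on the near-zero LD values, with log2 fold changes of 8.38 without LD3, 5.75 without LD1 and 5.72 without LD2. It was 4.77 with a pseudocount of 1 and 7.40 with one of 0.01. CAV2, a caveolin, had 1.15 on the log2 scale (limma adjusted p = 0.385), and without JH1 it was called with 2.02 (0.0297). The median log2 fold change of the list was -0.42.

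Of 7 other fatty acid and acyl-CoA binding proteins and of 7 acyl-CoA thioesterases none was called, with medians of 0.12 and 0.06. SCP2, a peroxisomal lipid carrier, was higher in every JH pig, at 201 ± 58.2 (SD, n = 3) RPKM against 110.5 ± 30.6 (SD, n = 3) RPKM in LD (log2 fold change 0.86, limma adjusted p = 0.180). FABP5 had a log2 fold change of -0.78 and ACOT8 one of 0.75 (adjusted p = 0.285 from limma for both). ACOT12 had -0.99 on the log2 scale (limma adjusted p = 0.339), and without JH3 it was called with -1.63 (0.0313).

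Of 6 tested PPAR receptors and partners none was called, with a median log2 fold change of 0.16. PPARA itself was at 19.4, 6.85 and 15.02 RPKM in JH1 to JH3 and at 7.89, 10.6 and 11.01 RPKM in LD1 to LD3, so the breeds overlapped (log2 fold change 0.37, limma adjusted p = 0.652). PPARD was lower in every JH pig, at 4.11 ± 0.651 (SD, n = 3) RPKM against 8.14 ± 1.56 (SD, n = 3) RPKM (log2 fold change -0.96, limma adjusted p = 0.0963). Under quantile normalization PPARD was called, at -1.002 on the log2 scale (limma adjusted p = 0.0383).

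**Figure D4:**
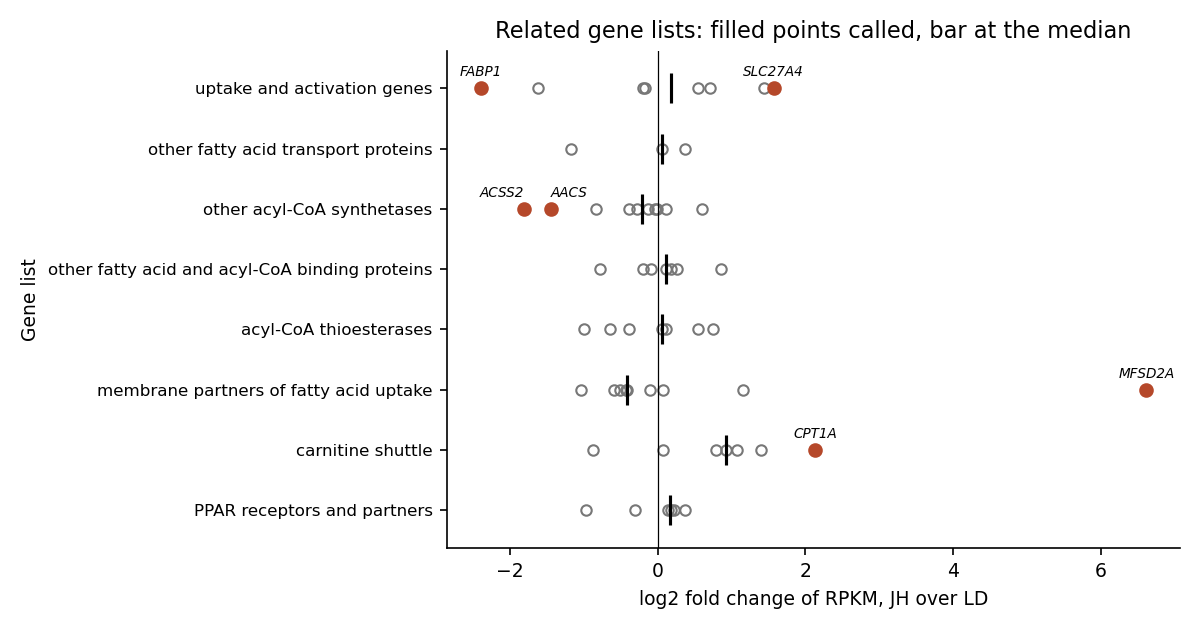
Log2 fold change of JH over LD for the tested genes of each list, 1 point per gene, filled and named where called, with a bar at the median of the list. The uptake and activation genes lay on both sides of 0. Of the carnitine shuttle genes 6 of 7 lay above 0, against 6878 of all 12993 tested genes.

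Markers of other cell types moved with the breed in some lists. The summed level of 9 stellate cell and smooth muscle markers was 91.1 to 112 RPKM in JH and 212 to 433 RPKM in LD. Of these 9 markers 4 were called lower in JH, against 1.36% of all tested genes. These were the collagen genes COL1A1, COL1A2 and COL3A1, and LRAT. PDGFRB was lower in every JH pig but not called, and DES, ACTA2, RGS5 and TAGLN overlapped between the breeds. The sum of 6 bile duct markers was 9.32 to 20.01 RPKM in JH and 21.9 to 54.1 RPKM in LD, and that of 5 red blood cell markers was 90.2 to 122 RPKM in JH and 214 to 393 RPKM in LD, with 1 gene called lower in each list. KRT7 of the bile duct list and CD163 of the macrophage list were at 0 in all libraries. Sums of macrophage markers (495 to 1145 RPKM in JH, 871 to 1039 in LD) and of lymphocyte markers (29.6 to 105 and 35.8 to 43.6) overlapped. The sum of endothelial markers (161 to 266 and 207 to 261) overlapped too, but CLEC4G made up most of it (109 to 213 and 135 to 195). Of the 8 tested endothelial markers PECAM1, VWF, KDR and ERG were lower in every JH pig. TEK, STAB2, CLEC4G and EMCN overlapped, and of all tested genes 23.4% did not overlap in either direction. None of the 8 was called, and their median log2 fold change was -0.54. The part of these cells in the results of FABP1, ACSL3, CD36 and the transporters was not tested. Of the adipocyte markers LEP was at 0 in all libraries, and ADIPOQ was at 0 in 5 libraries and at 0.214 RPKM in LD3. PCK1, which hepatocytes also express, made up most of the adipocyte sum and was at 753 RPKM in JH1 against 28.0 to 169 RPKM in the other pigs.

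The genes most like FABP1 across the 6 libraries, by Pearson's r of log2(RPKM + 0.1), were LOC396575 (r = 0.995), L3MBTL3 (0.986), LOC102159798 (0.986), CHD1L (0.983) and DMD (0.983). The 6 points fall into 2 breeds, and 82 tested genes had an r above 0.95. Of the 5 genes LOC102159798 was called, on 20 reads or fewer per library. In the RefSeq gene order of assembly Sscrofa11.1, 18 of the 32 protein-coding genes next to the 8 genes, the nearest 2 on each side, were tested, and TECTB beside ACSL5 was the 1 called. No tested neighbour of FABP1, SLC27A4, SLC27A2 or ACSL3 was called, with log2 fold changes from -1.36 for CERCAM to 0.79 for THNSL2. Since 2.39% of all tested genes were called, the lack of calls among so few neighbours says little.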

How the data were processed

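Total RNA of liver was made into mRNA libraries and sequenced as 50 bp single reads. The authors aligned clean reads to Sus scrofa 10.2 with TopHat2 2.0.13, used gfold for the reads of each gene, and deposited the expression as RPKM, 1 table per library. The gene annotation is not given in the sources used here. The small RNA tables were not used.

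Libraries were assigned to breed and replicate by their titles. SLC27A5 was also looked up by its RefSeq gene number. Whole reads were recovered where 1 gene length made all values of a gene whole, which held for 12980 of the 12993 tested genes. In a simulation with 4000 genes this worked for 2930, and 98.5% of those came back with the exact reads; 2 of 6 totals were exact and the largest error of a total was 1 read.

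Breeds were compared with limma 3.58.1 (R 4.3.3, lmFit and eBayes with a trend). The limma step was also tested on simulated data. The authors' DEGseq test needs counts. Single shares were compared with exact permutation tests, and their Benjamini-Hochberg adjustment was added after seeing the data. Genes named are all listed members, and from each pathway list every called gene and the 2 with the largest change. Also named are the 5 genes most like the member with the largest change, and markers at 0 in all libraries. SLC27A1, ADIPOQ, PCK1, RN18S and the neighbouring genes fall outside this rule and were chosen after their values were seen. The same holds for the hepatocyte, endothelial, stellate cell and smooth muscle markers named singly with values above 0. The members and lists were chosen with earlier results of these data known. Python 3.11.15, pandas 2.3.3, scipy 1.17.1 and matplotlib 3.10.9 were used.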

Additional observations from a re-analysis of the deposited data

How the results depend on the processing

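The counts of calls moved with several settings. A pseudocount of 0.01 gave 199 called genes (83 higher and 116 lower in JH), 0 of the 8 uptake and activation genes and 2 genes of the related lists. No filter gave 200 called genes, 76 of them higher in JH, with 0 of the 8 and 0 in the lists. Limma without the variance trend left 85 genes higher in JH, 0 of the 8 and 0 in the lists, and median scaling left 1 of the 8, SLC27A4. These counts of 0 are from limma, and limma voom on recovered reads, an alternative chosen after seeing the data, called 3 of the 8. At an unadjusted p under 0.05, 4 of the 8 passed in the reported fit. The share of all tested genes under this limit was not counted, so this number sets the 8 genes apart from no background. With 1 library left out, 79 to 406 genes were called, 41 to 176 higher and 38 to 230 lower in JH, with 0 to 3 of the 8 and 0 to 7 in the lists.

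With the replicate number as a block, 2 of the 8 genes and 2 genes of the lists were called, ACSS2 and MFSD2A. Deviations of same-numbered JH and LD pigs correlated with r of -0.02, 0.05 and 0.18, and nothing in the sources pairs the pigs. With 1 library left out, the difference in ACSL1 share stayed between 11.8 and 19.7 percentage points and that of ACSL3 between -16.8 and -11.1. The ranges were -2.21 to 0.032 for ACSL4, -0.690 to -0.249 for ACSL5, -4.03 to 3.34 for SLC27A2 and -3.34 to 4.03 for SLC27A4.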
